A study of Mus musculus with 6 samples.

Results

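The genes described are 10 that encode noncollagenous proteins of the cartilage matrix or of chondrocytes: Comp, Matn1, Matn3, Cilp, Cilp2, Ucma, Snorc, Cnmd (listed as Lect1 in older annotations), Chadl and Scrg1. They were taken by name rather than by a cut on measured values, though with earlier results of these data known. All 10 were found among the 55401 genes of the deposited count table. The sequenced RNA came from the knee articular cartilage of mice aged 10 weeks, in 2 groups of 3 libraries, with titles CTRL1 to CTRL3 (genotype WT) and CKO1 to CKO3 (genotype adseverin knockout). Both groups carried the same treatment, tamoxifen at 1.5 mg per 10 g of body weight given on 5 days in a row, starting at an age of 8 weeks, so the controls were exposed to the drug as well. The labels name neither the driver of recombination nor the strain, the sex or the number of mice behind a library, so p-values measure only the spread between these libraries, which may be technical. Read totals ran from 22664828 to 31014996 per library. Scin, which encodes the actin-severing protein adseverin, measured 185 to 219 CPM (counts relative to a library's TMM-adjusted read total) in CTRL and 29.4 to 39.1 CPM in CKO, so each library matched its label.

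Cartilage gets its stiffness from collagen fibrils and trapped aggrecan, and a set of less abundant glycoproteins ties these parts together or reports on the state of the chondrocyte. COMP and the matrilins are multi-armed proteins that bridge collagen fibrils and proteoglycans. The cartilage intermediate layer proteins lie between cells in the middle depth of articular cartilage, and CILP is known to bind growth factors of the TGF-beta family. The remaining proteins are secreted or cell-surface products for which cartilage is a main source: UCMA is a small Gla-rich protein, SNORC a transmembrane proteoglycan, chondromodulin (Cnmd) an inhibitor of blood vessel growth, CHADL a leucine-rich repeat protein that binds collagen, and SCRG1 a small protein secreted during chondrogenesis.

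The 10 genes covered a very wide range of levels. On the scale of RPKM (CPM divided by the length of merged exons in kilobases, the scale on which genes of different length can be compared), Cilp stood at 5094 ± 479 in CTRL and 4512 ± 233 in CKO (mean ± SD, n = 3 per group here and below). Comp followed at 2019 ± 120 RPKM in CTRL and 2202 ± 192 RPKM in CKO. Over the 6 libraries Cilp ranked 6 to 7 and Comp 11 to 14 among all genes per length, so both were among the leading transcripts of the tissue. Next came Scrg1 with a mean of 1130 RPKM over the 6 libraries, Cnmd with 863 RPKM and Snorc with 862.6 RPKM, and the ranges of these neighbours overlapped, so their order does not exceed their spread. Ucma (438.5 RPKM), Cilp2 (143.5 RPKM) and Chadl (39.3 RPKM) each lay apart from the next gene in every library. Matn3 and Matn1, with means of 1.62 and 1.42 RPKM over the 6 libraries, overlapped each other. By these means, Chadl exceeded Matn3 by 24.3-fold.

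**Figure D1:**
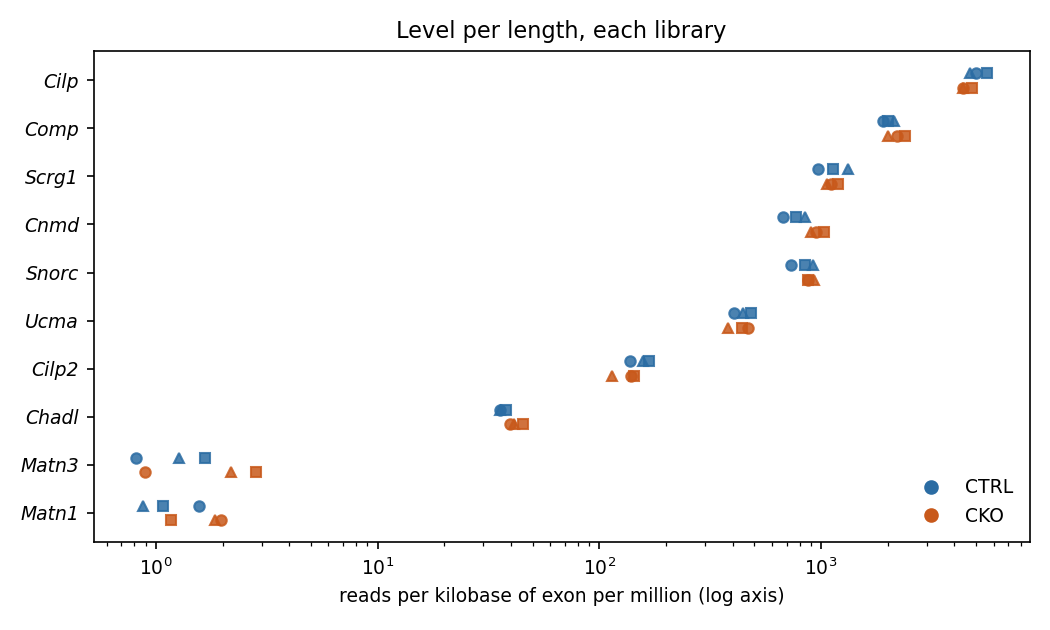
Level of each gene per exon length (x axis, RPKM, log axis) in the 3 CTRL libraries (blue) and the 3 CKO libraries (orange), with marker shapes for replicates 1 (circle), 2 (square) and 3 (triangle). Cilp and Comp sit at the top, 8 genes lie above 35 RPKM in every library, and the 2 matrilins lie below 3 RPKM.

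Together the 10 genes took 2.91% to 3.37% of all reads in a library, of which Cilp alone took 1.85% to 2.37% and Comp 0.576% to 0.696%. Matn1, the matrilin of many hyaline cartilages that is known to be scarce at the adult joint surface, had 46 to 89 reads per library. Matn3, a matrilin best known from growth cartilage, had 61 to 260 reads. The other 8 genes had at least 4560 reads in every library, so counting error was small for them and not for the matrilins.

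The 10 genes lie on 8 chromosomes. Comp (ENSMUSG00000031849.9, GRCm38 chromosome 8, 70373558 to 70382066) and Cilp2 (ENSMUSG00000044006.8, chromosome 8, 69880369 to 69887687) are 0.486 Mb apart, and Scrg1 (ENSMUSG00000031610.3, chromosome 8, 57455923 to 57477585) lies 12.4 Mb from Cilp2. Matn3 (ENSMUSG00000020583.4, chromosome 12, 8947929 to 8972028) is on the chromosome of Scin, 31.1 Mb away. Cilp (ENSMUSG00000042254.14) spans chromosome 9, 65265180 to 65280605, and Cnmd (ENSMUSG00000022025.13) spans chromosome 14, 79637690 to 79662170. Matn1 (ENSMUSG00000040533.7) spans chromosome 4, 130944385 to 130955475, Ucma (ENSMUSG00000026668.10) chromosome 2, 4976122 to 4985748, and Snorc (ENSMUSG00000026258.5) chromosome 1, 87470271 to 87475482. Chadl (ENSMUSG00000063765.12, chromosome 15, 81678296 to 81697287) was the only one of the 10 to overlap another annotated gene, L3mbtl2 on the opposite strand, over 1023 of its 5257 exon bases. No label states whether counting used strand, so reads in that stretch cannot be assigned with certainty to Chadl.

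RefSeq promoter sequences were at hand for 7 of the 10 genes, and the 250 bases before the start are shown for 4 of them. Cilp is shown as the most abundant gene, Matn3 as a gene near the bottom of the range with the widest spread between libraries, and Cnmd and Chadl because their CTRL and CKO values did not overlap. All are written 5′ to 3′ along the gene, with capitals marking matches to 3 motifs searched on both strands: a TATA box (TATAAA or TATATA), a GC box (GGGCGG) and a SOX hexamer (ACAAAG or ACAATG).
Cilp, GRCm38.p6 chr9:65264930-65265179, plus strand: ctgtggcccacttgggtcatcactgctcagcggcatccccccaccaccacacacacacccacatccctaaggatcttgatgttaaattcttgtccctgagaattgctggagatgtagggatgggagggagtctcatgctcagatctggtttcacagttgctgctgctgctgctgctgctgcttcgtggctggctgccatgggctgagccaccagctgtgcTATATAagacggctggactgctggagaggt
Matn3, GRCm38.p6 chr12:8947679-8947928, plus strand: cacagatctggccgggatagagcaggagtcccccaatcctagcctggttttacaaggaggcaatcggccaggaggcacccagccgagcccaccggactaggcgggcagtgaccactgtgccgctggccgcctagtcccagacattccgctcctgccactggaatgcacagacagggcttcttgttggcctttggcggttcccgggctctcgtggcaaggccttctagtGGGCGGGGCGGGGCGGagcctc
Cnmd, GRCm38.p6 chr14:79662184-79662433, minus strand: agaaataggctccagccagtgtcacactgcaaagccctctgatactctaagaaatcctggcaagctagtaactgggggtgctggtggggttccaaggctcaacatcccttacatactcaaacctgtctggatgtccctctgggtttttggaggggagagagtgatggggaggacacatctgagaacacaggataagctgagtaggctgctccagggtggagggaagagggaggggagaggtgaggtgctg
Chadl, GRCm38.p6 chr15:81697288-81697537, minus strand: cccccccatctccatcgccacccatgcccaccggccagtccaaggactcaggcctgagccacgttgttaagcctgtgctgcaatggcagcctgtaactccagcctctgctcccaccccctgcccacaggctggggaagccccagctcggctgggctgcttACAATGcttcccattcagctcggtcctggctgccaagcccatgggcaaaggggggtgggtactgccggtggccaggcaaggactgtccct
Cilp was the only 1 of the 7 with a TATA box match, which began 30 bases before its start; 15.6% of 32851 promoters of this length hold one. Matn3 held 3 overlapping GC boxes beginning 22, 17 and 12 bases before its start, and Matn1 and Cilp2 held GC boxes too, so 3 of 7 did, against 32.7% of all promoters. Chadl held the 1 SOX hexamer, beginning 90 bases before its start, against 25.2% of all promoters. Cnmd had no match to the 3 motifs in this window. These matches describe letters in a short window and say nothing of which factor is bound there.

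The comparison asked how these transcripts differed between cartilage labelled adseverin knockout and control cartilage. None of them passed the threshold: with edgeR's quasi-likelihood test and Benjamini-Hochberg adjustment over all 16260 genes tested, 0 of the 10 had an adjusted p under 0.05, and their adjusted p-values ran from 0.658 to 0.987. Over all genes 0.00615% were called, which is Scin alone. DESeq2, which called 0.444% of the genes to which it gave an adjusted p, also called 0 of the 10, as did limma-voom. At an unadjusted p under 0.05 there were 2 of the 10, Cnmd and Chadl, both with higher values in CKO, against 6.5% of all genes in either direction, 3.54% higher and 2.96% lower. The same 2 genes had no overlap between CTRL and CKO libraries, against 12.3% of all genes in either direction, 6.41% with CKO higher and 5.89% with CKO lower. With so few genes these counts are given as a description. All 10 passed the filter on low counts.

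Below, levels are in CPM and differences are log2 fold changes, CKO minus CTRL, ± SE. Of the 10 differences, 6 were above 0 and 4 below 0, with a median of 0.11, while 50.6% of all genes tested were above 0 and 49.4% below, and their median was 0.0037. The median over the 10 genes was 0.046 without CTRL1 and 0.18 without CTRL3. For 8 of the 10 genes the 95% interval of the difference left out a 1.5-fold change in either direction. The exceptions were Matn1 and Matn3. The upper bound for Cnmd was 0.56 on the log2 scale, just inside 1.5-fold, and passed it without CTRL2 (0.62), CTRL3 (0.65), CKO1 (0.61) or CKO3 (0.63). In bulk tissue, a change in the share of chondrocytes and a change in RNA per chondrocyte cannot be told apart.

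**Figure D2:**
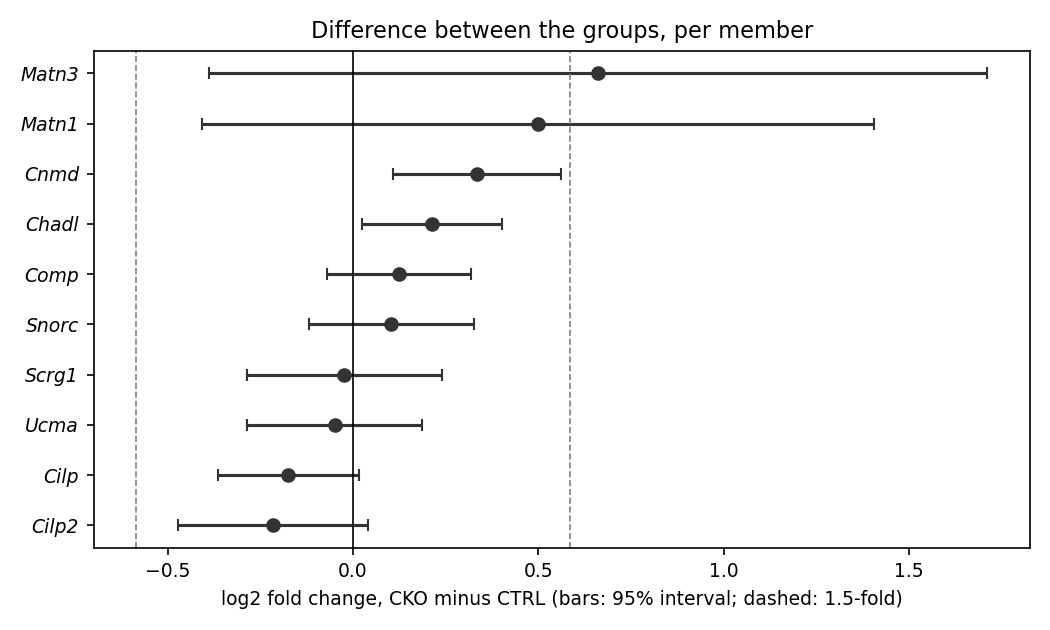
Log2 fold change, CKO minus CTRL, of each gene (points) with its unadjusted 95% interval from the edgeR fit (bars); dashed lines mark a 1.5-fold change. The intervals of Cnmd and Chadl lie above 0 (0.11 to 0.56 and 0.02 to 0.40), and those of Matn1 and Matn3 are the widest of the 10.

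Among the bridging proteins, Comp measured 5652, 5957 and 6364 CPM in CTRL1 to CTRL3 and 6536, 7102 and 5963 CPM in CKO1 to CKO3. CKO2 and CKO1 were the highest libraries, but CKO3 lay within the CTRL range, so the groups overlapped. The difference was 0.13 ± 0.08 with a 95% interval of -0.07 to 0.32 (edgeR adjusted p = 0.867). It ranged from 0.061 without CKO2 to 0.19 without CKO3.

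The matrilins had the fewest reads of the 10 genes and the widest range between libraries. Matn3 measured 2.45, 5.05 and 3.84 CPM in CTRL and 2.7, 8.56 and 6.61 CPM in CKO. CKO2 and CKO3 were the highest libraries, yet CKO1 lay close to CTRL1, the lowest. The exact Poisson interval of CKO2 (7.55 to 9.67 CPM, 95%, counting error only) did not meet that of CKO1 (2.07 to 3.47 CPM), so libraries of the same group differed beyond counting error. The difference was 0.66 ± 0.46, with an interval of -0.39 to 1.71 (edgeR adjusted p = 0.871), and it was 0.30 without CKO2 and 1.01 without CKO1. Matn1 measured 3.13, 2.15 and 1.75 CPM in CTRL and 3.94, 2.34 and 3.68 CPM in CKO, again with overlap. Its difference was 0.50 ± 0.40 with an interval of -0.41 to 1.41 (edgeR adjusted p = 0.894), and it was 0.33 without CTRL3 and 0.76 without CTRL1. Matn1 and Matn3 did not share a library pattern: CTRL1 and CKO1 were lowest for Matn3, whereas CKO1 was highest for Matn1 and CTRL1 the highest of the CTRL libraries.

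The cartilage intermediate layer proteins had lower means in CKO, unlike Comp. Cilp measured 21191, 23890 and 19902 CPM in CTRL and 18570, 20331 and 18659 CPM in CKO. CKO1 and CKO3 lay below every CTRL library, but CKO2 lay above CTRL3. The difference was -0.18 ± 0.08, with an interval of -0.37 to 0.01 (edgeR adjusted p = 0.793). Cilp2, the close relative of Cilp, measured 593, 719 and 682 CPM in CTRL and 602, 622 and 495 CPM in CKO. CKO3 was the lowest library and CTRL1 fell among the CKO values. The difference was -0.21 ± 0.11, with an interval of -0.47 to 0.04 (edgeR adjusted p = 0.812), and it was -0.29 without CTRL1 and -0.12 without CKO3. Per length, Cilp exceeded Cilp2 by 29.6-fold to 38.3-fold in the 6 libraries, with overlapping groups (33.2 ± 3.34 in CTRL and 34.2 ± 3.61 in CKO).

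Chondromodulin had the smallest p-value of the 10. Cnmd measured 1239, 1428 and 1553 CPM in CTRL and 1756, 1903 and 1663 CPM in CKO, or 1407 ± 158 against 1774 ± 121 CPM. Every CKO library lay above every CTRL library, with a gap between CTRL3 and CKO3 that was smaller than the spread within CTRL. The difference was 0.33 ± 0.10, a fold of 1.26 with a 95% interval of 1.08 to 1.48, at an unadjusted p of 0.00902 and an edgeR adjusted p of 0.658. It ranked 210 among all genes by p. The difference stayed between 0.25 (without CTRL1) and 0.41 (without CTRL3) with single libraries left out, and DESeq2 gave an adjusted p of 0.188.

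Chadl measured 187, 200 and 187 CPM in CTRL and 209, 239 and 217 CPM in CKO, or 191 ± 7.64 against 222 ± 15.4 CPM. The groups did not overlap, and CTRL2 and CKO1, the nearest libraries, were close to each other. The difference was 0.21 ± 0.08 at an unadjusted p of 0.0317 and an edgeR adjusted p of 0.715. L3mbtl2, whose exons overlap Chadl on the opposite strand, measured 20.5 ± 1.21 CPM in CTRL and 20 ± 4.32 CPM in CKO, with a difference of -0.03 ± 0.18.

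**Figure D3:**
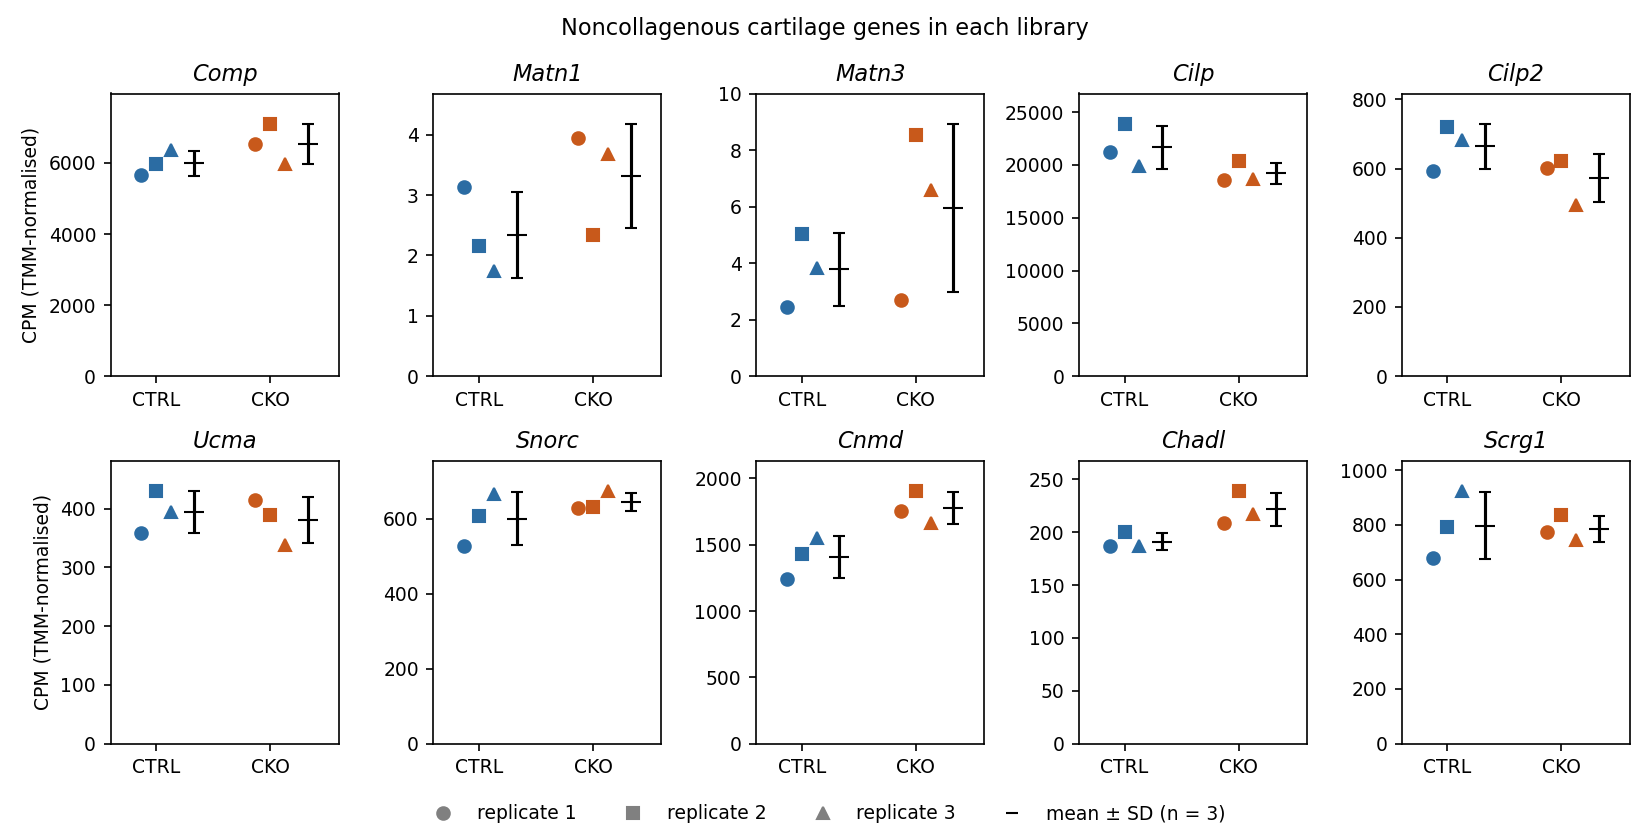
CPM of each of the 10 genes (y axes from 0, a scale per gene) in CTRL (blue) and CKO (orange) libraries, with marker shapes for replicates and the mean ± SD (n = 3) in black. Cnmd and Chadl show no overlap between the groups, and the other 8 genes do overlap.

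For Ucma, Snorc and Scrg1 the group means lay close together and the libraries overlapped. Ucma measured 359, 429 and 395 CPM in CTRL and 415, 390 and 338 CPM in CKO, with the lowest value in CKO3 and the highest in CTRL2. Its difference was -0.05 ± 0.10 with an interval of -0.29 to 0.19. Snorc measured 527, 609 and 667 CPM in CTRL and 628, 633 and 674 CPM in CKO; its 3 CKO values lay close together, and CTRL3 fell among them. Its difference was 0.10 ± 0.10 with an interval of -0.12 to 0.33, and it was 0.011 without CTRL1 and 0.18 without CTRL3. Scrg1 measured 679, 791 and 923 CPM in CTRL and 773, 837 and 745 CPM in CKO, so all CKO values lay inside the CTRL range. Its difference was -0.02 ± 0.11 with an interval of -0.29 to 0.24. The edgeR adjusted p-values of Ucma, Snorc and Scrg1 were 0.968, 0.91 and 0.987.

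Several of the 10 genes had the same highest or lowest library, and how often this held over all genes was not counted. CTRL1 was the lowest library for 6 of the 10 (Comp, Matn3, Snorc, Cnmd, Chadl and Scrg1) and the highest for 0. CKO2 was the highest for 4 (Comp, Matn3, Cnmd and Chadl) and the lowest for 0. CTRL2 was the highest for Cilp, Cilp2 and Ucma. Relative to its own mean over the 6 libraries, the median gene of the 10 stood at -0.14 (log2) in CTRL1 and at 0.057 in CKO2, with the other 4 libraries between -0.011 and 0.020.

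**Figure D4:**
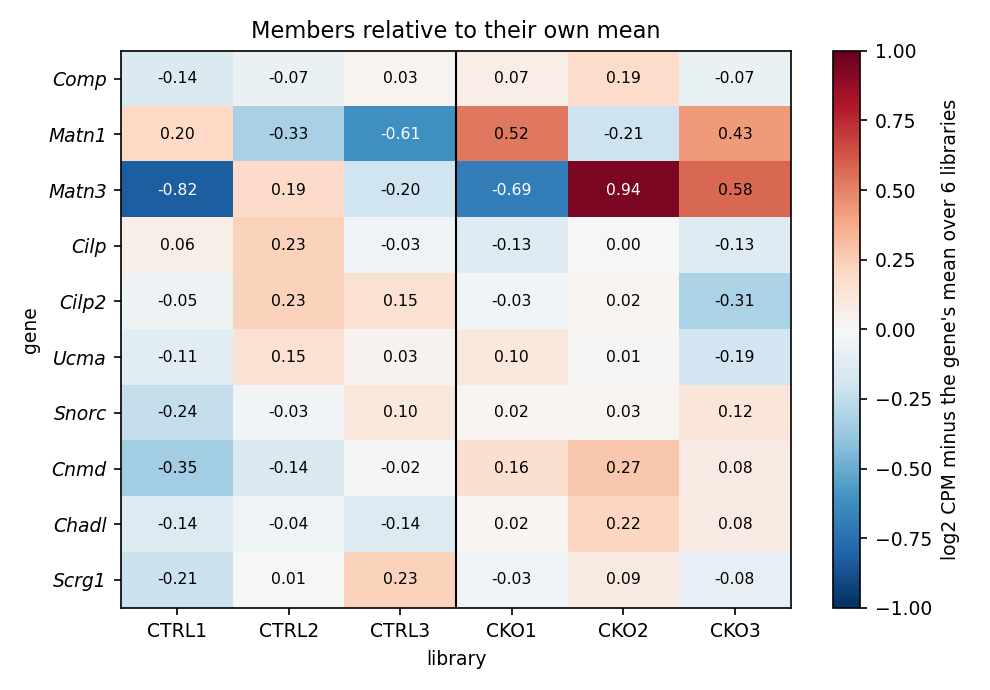
Log2 CPM of each gene minus its own mean over the 6 libraries (colour and printed values; rows are genes, columns are libraries, and the black line parts CTRL from CKO). The matrilins carry the extreme values, from -0.82 for Matn3 in CTRL1 to 0.94 for Matn3 in CKO2, and Cnmd is below 0 in the 3 CTRL and above 0 in the 3 CKO libraries.

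Relatives of the 10 genes from the matrilin, thrombospondin, chondroadherin and tenomodulin families were taken as a list of 8, of which 7 were tested. None passed the threshold with edgeR (0 of 7; 1 at an unadjusted p under 0.05, Matn4), 3 were above 0 and 4 below 0, and the median was -0.11. Matn4, a matrilin found in many tissues, measured 11.7, 17.2 and 11.9 CPM in CTRL and 9.21, 7.54 and 2.93 CPM in CKO. Every CKO library was below every CTRL library, with a difference of -1.05 ± 0.39 (unadjusted p = 0.0269, edgeR adjusted p = 0.704). Matn2, named after its values were seen, was at 85.7 ± 17.8 CPM in CTRL and 73.2 ± 10.8 CPM in CKO. Per length it exceeded Matn3 by 4.08-fold to 15.2-fold in the 6 libraries. Of the thrombospondins, the family of COMP, Thbs2 was at 212 ± 27.3 CPM in CTRL and 169 ± 42 CPM in CKO. Thbs4 was at 367 ± 13 CPM in CTRL and 399 ± 34.5 CPM in CKO and, per length, reached 0.0515 to 0.0587 of the Comp level. Chad (chondroadherin), also named after its values were seen, was at 22829 ± 1206 CPM in CTRL and 24297 ± 529 CPM in CKO. Its CKO libraries all lay above its CTRL libraries, with a difference of 0.09 ± 0.06 (edgeR adjusted p = 0.873). Per length it exceeded Chadl by 315-fold to 393-fold. Tnmd (tenomodulin), a tendon relative of Cnmd, was not tested and had at most 2.19 CPM, with 0 reads in CTRL1, CKO1 and CKO3.

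Collagens and proteoglycans that these proteins bind were taken as a list of 12. None passed the threshold with edgeR, 9 were above 0 and 3 below 0, and the median was 0.18; at an unadjusted p under 0.05 there were 4 higher and 1 lower. Acan, whose product aggrecan binds matrilins and COMP, stood at 1345 ± 85.9 CPM in CTRL and 882 ± 152 CPM in CKO (-0.61 ± 0.13, edgeR adjusted p = 0.535). Col9a1 and Col9a3, chains of the collagen IX that COMP and the matrilins bind, had differences of 0.53 ± 0.17 and 0.41 ± 0.14. Of 18 other noncollagenous matrix genes, 17 were found by symbol and 15 tested; 0 passed with edgeR, 1 lay higher and 1 lower at an unadjusted p under 0.05, and the median was -0.04. Mfge8, a secreted glycoprotein, was at 3225 ± 353 CPM in CTRL and 4565 ± 406 CPM in CKO (0.50 ± 0.10, edgeR adjusted p = 0.533). Fn1 (fibronectin) was at 4575 ± 203 CPM in CTRL and 3642 ± 247 CPM in CKO (-0.33 ± 0.08, edgeR adjusted p = 0.596), and Ogn (osteoglycin) had 0.21 ± 0.10. Of 9 transcription factors of chondrocytes, 7 were above 0 and 2 below 0 with a median of 0.11, 0 passed with edgeR, and 1, Runx1, had an unadjusted p under 0.05. Sox9, the factor on which expression of many of these genes is known to depend, had 0.22 ± 0.10, Foxc1 0.24 ± 0.11 and Runx1 -0.45 ± 0.15.

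The labelled cell type, chondrocytes of articular cartilage, was checked against marker lists. All 6 chondrocyte markers were read in every library, with Col2a1 at 14452 to 15301 CPM in CTRL and 15914 to 20596 CPM in CKO, and Sox9 next at 1621 ± 207 CPM in CTRL and 1893 ± 106 CPM in CKO. Their summed level was 19171 to 19549 CPM in CTRL and 20479 to 25432 CPM in CKO, without overlap, and 5 of 6 were above 0 with a median of 0.23 and Acan below. A sum without Col2a1 was taken after the values were seen. The other 5 summed to 4248 to 4834 CPM in CTRL and 4196 to 4836 CPM in CKO, with overlap. That sum holds Acan, the only marker with a difference below 0, at 1273 to 1440 CPM in CTRL and 708 to 989 CPM in CKO. It therefore cannot show whether the separation rested on Col2a1 alone. Taken singly, Hapln1 was higher in every CKO library (954 to 1077 CPM in CTRL, 1093 to 1179 CPM in CKO). So was Col9a1 (116 to 149 CPM in CTRL, 159 to 246 CPM in CKO), while Col11a2 and Sox9 overlapped between the groups. Beside the higher Cnmd and Chadl values, Col2a1 was also higher in every CKO library, with CKO2 highest. Of the collagens and proteoglycans, 5 of 12 were higher in every CKO library (Col2a1, Col9a1, Col9a2, Col9a3 and Hapln1). So were 1 of 7 relatives (Chad), 2 of 15 other matrix genes (Mfge8 and Mia) and 0 of 9 transcription factors. Each of these lists held 1 gene lower in every CKO library: Acan, Matn4, Fn1 and Runx1. Over all genes, 6.41% were higher and 5.89% lower without overlap. The part of any of these genes in the differences of Cnmd and Chadl was not tested. Superficial zone markers, led by Cytl1 (9082 ± 882 CPM in CTRL) and Prg4 (5255 ± 350 CPM in CTRL), summed to 16698 to 20117 CPM in CTRL and 18003 to 19103 CPM in CKO. Markers of hypertrophic chondrocytes, led by Ibsp and Spp1, summed to 32199 to 37200 CPM in CTRL and 33478 to 39869 CPM in CKO. Ibsp alone was at 23181 to 25513 CPM in CTRL and 24365 to 30048 CPM in CKO, and it is also an osteoblast marker below. Of the 9 genes, 4 were above 0 and 5 below 0, with a median of -0.02.

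Other cell types were present as well. Osteoblast and osteocyte markers, led by Ibsp and Col1a1, summed to 32811 to 39317 CPM in CTRL and 38417 to 39914 CPM in CKO, and 8 of 9 were above 0 (median 0.26). Tendon, ligament and fibroblast markers, led by Col1a1 and Col1a2, summed to 16358 to 21150 CPM in CTRL and 14911 to 20738 CPM in CKO. Col1a1, at 6540 to 9836 CPM in CTRL and 5201 to 9710 CPM in CKO, is in this list and in the osteoblast list. The sum therefore does not measure tendon apart from bone, and Tnmd, the tendon relative of Cnmd, had at most 2.19 CPM. That list bears on Comp and Cilp, which are also known from tendon and meniscus; 5 of its 9 tested genes were above 0, with a median of 0.03. Macrophage markers, led by Lyz2 and Cd14, summed to 738 to 934 CPM in CTRL and 602 to 742 CPM in CKO, and 0 of 8 were above 0. Neutrophil markers, led by Ngp and S100a8, summed to 1053 to 1896 CPM in CTRL and 1253 to 2628 CPM in CKO, and erythroid markers, led by Hbb-bs and Hba-a1, to 2755 to 3092 CPM in CTRL and 2874 to 4391 CPM in CKO. Skeletal muscle markers, led by Acta1 and Tnnt3, reached 1371 CPM in CTRL2 against 27.4 to 231 CPM in the other libraries. Adipocyte markers, led by Cfd and Fabp4, also peaked in CTRL2, at 163 CPM against 20.9 to 84.7 CPM, and Lep was at 0 reads in all 6. Endothelial markers, led by Pecam1 and Tek, summed to 26 to 51.6 CPM. CTRL2 was also the highest library for Cilp, Cilp2 and Ucma. Without CTRL2 their differences were -0.11, -0.16 and 0.0081, and without CTRL1 they were -0.19, -0.29 and -0.12. Whether muscle or fat in CTRL2 had a part in this was not tested.

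The gene outside the set whose library pattern was nearest to each of the 10 was found among 6815 genes with a mean of at least 20 CPM, as the smallest root mean square distance of log2 CPM, each gene centred on its own mean over the 6 libraries. Cnmd was nearest to Rab4a, which encodes an endosomal GTPase (distance 0.033, difference 0.36 ± 0.14). Chadl was nearest to Manba, which encodes a lysosomal mannosidase (distance 0.024, difference 0.21 ± 0.10), and Comp to Rcn2, which encodes a calcium-binding protein of the secretory pathway (distance 0.028). Cilp was nearest to Rcbtb2, Cilp2 to Zfp91, Ucma to Usp9x, Snorc to Arl3 and Scrg1 to Dynlrb1, at distances of 0.024 to 0.042. For the matrilins the nearest were Arrdc4 for Matn1 at 0.16 and Serpina1b for Matn3 at 0.26. Distances were not scaled to a gene's own spread. The SD of log2 CPM over the 6 libraries was 0.45 for Matn1 and 0.70 for Matn3, against 0.12 to 0.22 for the other members. All candidates also had a mean of at least 20 CPM, above the level of both matrilins. Serpina1b belongs to a family of near-identical copies whose reads are uncertain. With 6 libraries and so many candidates, some small distances arise for any gene, so these names are a description of pattern only.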

How the data were processed

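RNA from knee articular cartilage was measured in 3 CTRL and 3 CKO libraries, grouped and numbered by their titles. The main tests used the deposited counts, whole numbers of reads for each Ensembl gene without normalization. A further deposited table gives a normalized signal over 23239 genes, equal to the counts divided by 1 size factor per library; whole reads were recovered for 100% of its values above 0, within 0.001 of a read, and edgeR on those reads called 1 gene. Per the submitters' processing notes, the tools were HISAT2 2.2.1, FastQC 0.11.9, DESeq2 1.30.1 under R 4.0.5, and featureCounts 2.0.1, on the build GRCm38. No source used here gives their settings, the annotation release or the handling of multi-mapping reads, and reads of near-identical genes are therefore uncertain. Per the labels' protocols, full-length cDNA was prepared with an ultra-low-input kit.

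Default filterByExpr settings left 16260 genes, whose counts were scaled by TMM factors and compared by edgeR 4.0.16 under R 4.3.3 (glmQLFit and glmQLFTest, group as the only term, 4 residual degrees of freedom). The threshold was a Benjamini-Hochberg adjusted p under 0.05, and the SE is the size of the log2 fold change divided by the square root of F. Exact permutation of 3 against 3 libraries can reach no p under 0.1 and was not applied. Lengths and coordinates come from GENCODE vM21 (GRCm38), and symbols were found for 55141 identifiers. Promoters are from RefSeq (GRCm38.p6). Libraries of a group differed from each other by a chi-square of 31.4 to 36.5 per degree of freedom, so none was a duplicate.

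Alternatives were DESeq2 1.42.0, limma-voom and limma-trend (limma 3.58.1; the latter on log2 of that signal plus 1), RLE factors, library sizes alone, no filter, the replicate number as a block, and leaving out each library. The scripts were tested on simulated data. The members and lists were chosen with earlier results of these data known. Named are the 10 genes, Scin, the 3 genes with the smallest p of each list of matrix genes or transcription factors, the 2 most abundant of each cell type list, and the gene nearest in pattern to each member. Outside this rule, L3mbtl2 was named for its overlap with Chadl, and Tnmd, Lep, Matn2, Chad, Col9a2, Col11a2, Hapln1 and Mia after their values were seen.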

Additional observations from a re-analysis of the deposited data

How the results depend on the processing

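No member passed the threshold under any of the 14 alternatives, and 136 of 140 values of single members kept their direction. The exceptions were Ucma, at 0.0081 without CTRL2 and 0.031 without CKO3, and Scrg1, at 0.095 without CTRL3 and 0.015 without CKO3, where differences near 0 changed sign. Leaving out single libraries, Ucma ran from -0.12 to 0.031, Scrg1 from -0.13 to 0.095 and the median over the 10 genes from 0.046 to 0.18. That median was 0.11 to 0.12 under the other alternatives. The number of genes called over the whole table was 1, against 82 with DESeq2 (40 higher, 42 lower) and 3 with no filter on low counts, and 1 to 2 with single libraries left out; the cause of the larger DESeq2 count was not tested. With the replicate block, 1 gene and 0 members were called. The replicate numbers are not shown to pair the libraries: same-numbered libraries had correlations of deviations of -0.019, 0.071 and 0.023. The edgeR run on recovered reads was chosen after the data were seen. Of those reads, 0 differed from the counts, so its 10 member values repeat the main ones. They count among the 140 but are no separate check. Depth was lowest for the matrilins, at 46 to 260 reads per library; their 95% intervals extend past 1.5-fold, and Matn3 differed beyond counting error between CKO1 and CKO2.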
